A study of Mus musculus with 27 samples.

Results

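The chains of the collagens, the fibre- and sheet-forming proteins of the extracellular matrix, are encoded in the mouse by genes whose symbols are Col, a number, the letter a and a number. Gene identifiers of the 27 count files were matched without their version to GENCODE mouse release 21, and every protein-coding gene with such a symbol was taken. The rule found 44 collagen chain genes among 51826 identifiers, of which 51633 matched the annotation. They comprised 11 fibrillar chains, 6 chains of the basement membrane network (type IV), 6 chains of beaded filaments (type VI), 9 fibril-associated chains (FACIT), 3 short chains, 4 transmembrane chains, 2 multiplexins, 1 anchoring fibril chain and 2 others.

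RNA came from mouse E14 embryonic stem cells of 3 lines: a Sam68 knockout (KO; gene Khdrbs1), a Quaking KO (gene Qk) and wild type. Sam68 and Quaking are STAR proteins, which bind RNA, and the series asks about their part in early development. Stem cells (day 0) and embryoid bodies of days 3 and 10 were collected from each line, with 3 biological replicates in each of 9 groups. Each knockout is 1 line, so an effect of the knockout and of the clone cannot be told apart.

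A collagen molecule is wound from chains that are each the product of their own gene. Fibrillar chains build the fibrils of connective tissue, type IV chains build the sheet under epithelia, endothelia and embryonic endoderm, and fibril-associated chains sit on the surface of fibrils. In the early mouse embryo and in embryoid bodies, endoderm lays down a basement membrane rich in type IV collagen and laminin, while fibrillar collagens come mostly from mesenchyme.

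Libraries held 56.5 to 77.3 M counts. Levels are CPM, read counts divided by a library's size with TMM factors over all 27 libraries. Ranks and ratios of single genes are per kilobase (kb) of annotated exon. Sums and shares over several genes are in plain CPM, not scaled to gene length. Differences are log2 fold changes (log2FC) ± standard error from edgeR's quasi-likelihood test, called at a Benjamini-Hochberg adjusted p under 0.05 over all genes tested. Only the spread between these samples enters the p-values. Khdrbs1 RNA was not lost in the libraries labelled Sam68 KO: it averaged 91.4 ± 4.48 CPM there and 98.8 ± 1.37 CPM in wild type at day 0 (log2FC -0.03 ± 0.04). It was called lower at day 3 (-0.70 ± 0.06) and was not called at day 10 (-0.25 ± 0.13). The line is therefore called Sam68-labelled here, and directions drawn from it rest on that label. Qk was called lower in Quaking KO libraries at days 0, 3 and 10, with log2FC of -0.58 ± 0.04, -0.95 ± 0.05 and -0.41 ± 0.06. Its RNA was not lost either, at 159, 118 and 204 CPM there and 235, 227 and 267 CPM in wild type. The name Quaking KO thus rests on the label too. Library numbers of the Sam68-labelled line form a range of their own, so that label and any batch these numbers may follow cannot be told apart. The sample titles name no batch for any line. Pluripotency markers summed to 1993 to 2017 CPM in Sam68-labelled, 3385 to 3580.0 CPM in Quaking KO and 2837 to 3029 CPM in wild-type stem cells. In bulk RNA, fewer cells of a type and less RNA per cell cannot be told apart, which holds for every level given here.

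The summed collagen RNA of wild-type cells was lower at day 3 than at day 0 and increased after day 3. The 44 genes summed to 959, 994 and 989 CPM in wild-type libraries at day 0, to 807, 791 and 814 CPM at day 3 and to 10793, 10905 and 12727 CPM at day 10. Most of the lower sum at day 3 lay in Col18a1, which averaged 502 CPM at day 0 and 338 CPM at day 3. Fibrillar chains averaged 41.2 CPM in sum at day 0 and 75.6 CPM at day 3. Per kb, the basement membrane chains Col18a1, Col4a1 and Col4a2 held the first 3 ranks in every line at days 0 and 3. At day 10 the order in wild-type bodies was Col3a1 at 405 CPM per kb, Col4a1 at 256, Col1a1 at 133, Col4a2 at 108 and Col1a2 at 94.5 CPM per kb. Quaking KO bodies had the order Col3a1, Col4a1, Col1a1, Col18a1 and Col4a2, while Sam68-labelled bodies had Col4a1 first at 852, then Col4a2 at 343 and Col3a1 at 166 CPM per kb. These ranks, and every ratio per kb between genes, depend on the length used, the union of a gene's annotated exons. It is 12426 bases for Col1a2 and 6563 bases for Col1a1. In plain CPM Col1a2 averaged 1175 and Col1a1 873 in wild-type bodies at day 10, the reverse of their order per kb.

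**Figure D1:**
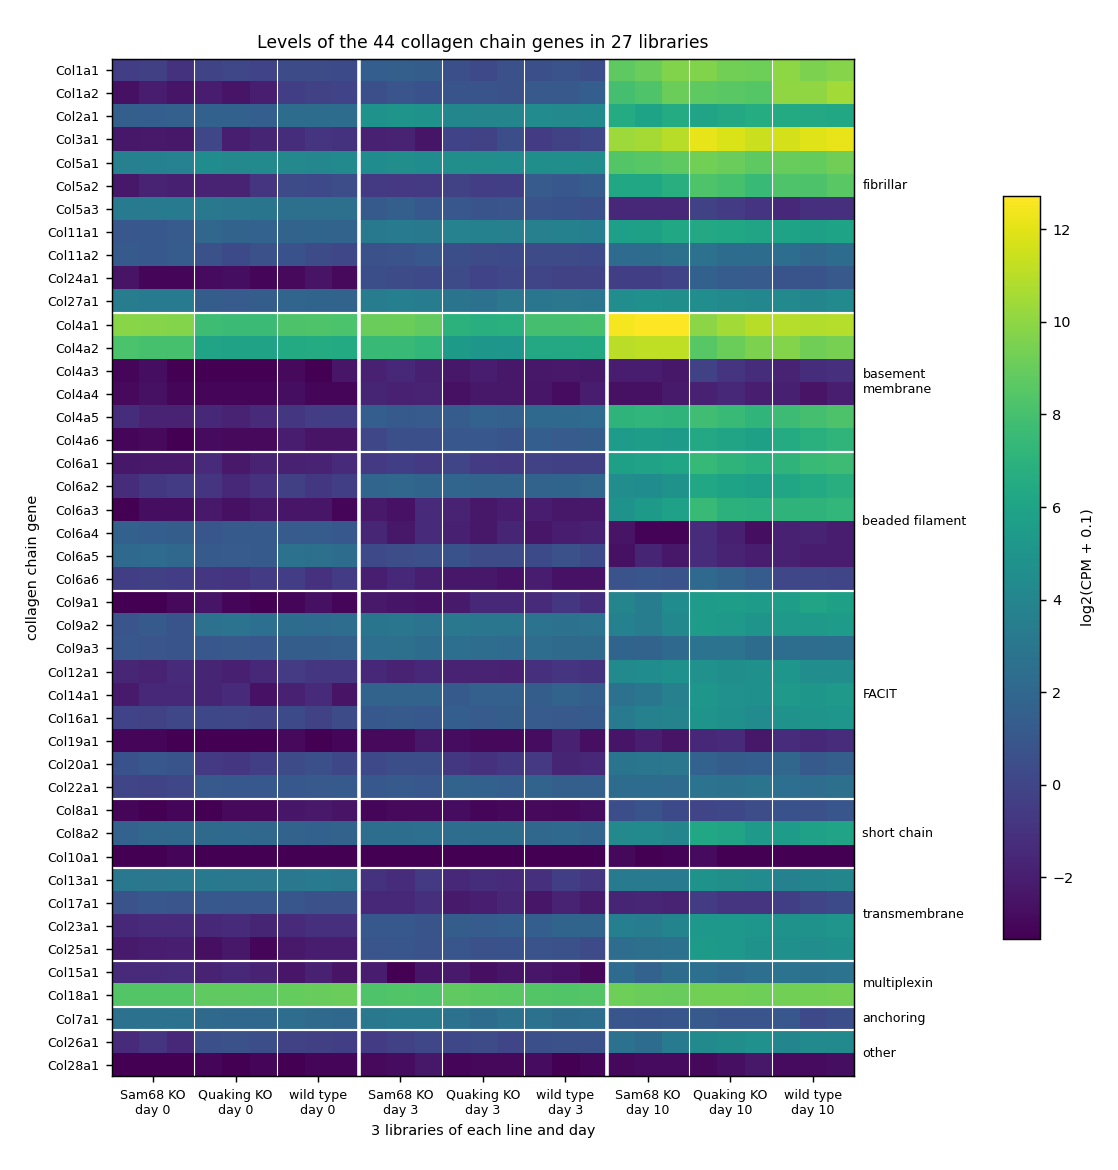
Level of each of the 44 collagen chain genes as log2(CPM + 0.1) in each of the 27 libraries, ordered by class down the page and by day and line across it, with levels not scaled to gene length. Rows of Col4a1, Col4a2 and Col18a1 are bright in all columns, whereas most fibrillar chains turn bright at day 10, where Col3a1 averages 1627 ± 341 CPM in Sam68-labelled, 3627 ± 856 CPM in Quaking KO and 3975 ± 708 CPM in wild-type bodies.

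In wild-type cells 22 collagen genes rose and 10 fell between day 0 and day 3, of 41 tested, when 30.8% and 30.1% of all genes tested were called higher and lower (60.9% in all). The largest rises were those of Col4a6 (log2FC 4.69 ± 0.33), Col24a1 (4.04 ± 0.33), Col14a1 (4.01 ± 0.23), Col25a1 (3.50 ± 0.20), Col9a1 (3.43 ± 0.54) and Col23a1 (3.31 ± 0.15). Some of these rises started from few reads. The wild-type libraries of day 0 together held 18 counts of Col4a6, 9 of Col24a1 and 6 of Col9a1. At day 3 Col24a1 stood at 0.925, 0.764 and 0.788 CPM and Col9a1 at 0.293, 0.470 and 0.327 CPM. The largest falls were those of Col13a1 (-4.07 ± 0.18) and Col17a1 (-3.52 ± 0.29), transmembrane chains of cell junctions, and of Col6a4 (-4.03 ± 0.23). Leaving out single libraries ended the calls of Col19a1, Col4a1 and Col8a1. The fall of Col4a1 (-0.22 ± 0.06, adjusted p = 0.00787) was -0.19 with an adjusted p of 0.0536 without day 0 replicate 2. Col8a1 (-1.42 ± 0.47) lost its call without replicate 1 or 2 of either day (adjusted p = 0.0541, 0.0825, 0.0665 and 0.0785 in order of day and replicate), and Col19a1 (2.43 ± 0.80) without replicate 2 of either day (adjusted p = 0.0674 and 0.116).

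Between day 3 and day 10, 36 of 41 collagen genes rose and 3 fell in wild type, when 39.6% of all genes were called higher and 36.5% lower (76.1% in all). The median log2FC of the collagen genes was 3.31, beside 0.02 over all genes. The steepest rises were those of Col3a1 (12.34 ± 0.21), Col6a3 (10.27 ± 0.17), Col1a1 (9.24 ± 0.14), Col1a2 (9.00 ± 0.16), Col6a1 (7.91 ± 0.18), Col9a1 (7.27 ± 0.19), Col5a2 (7.23 ± 0.14) and Col15a1 (6.67 ± 0.23). The genes that fell were Col6a5 (-3.03 ± 0.23), Col5a3 (-2.20 ± 0.17) and Col7a1 (-1.93 ± 0.18), and Col9a3 (0.14 ± 0.10) and Col6a4 (0.39 ± 0.32) were not called. All 39 calls held when each library was left out in turn.

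The makeup of collagen RNA set the Sam68-labelled line apart at each day, and the Quaking KO line from wild type at days 0 and 3. Col4a1 and Col4a2 together made up 73.2% in Sam68-labelled, 34.003% in Quaking KO and 40.3% in wild-type libraries at day 0, as a share of summed collagen CPM. Their share was 59.8% in Sam68-labelled, 22.5% in Quaking KO and 42.4% in wild-type libraries at day 3, and 67.1% in Sam68-labelled, 22.4% in Quaking KO and 23.1% in wild-type bodies at day 10. Fibrillar chains made up 22.6 to 29.5% in Sam68-labelled, 52.2 to 68.8% in Quaking KO and 58.8 to 64.1% in wild-type bodies at day 10, so that the Sam68-labelled range lay below the others and those of Quaking KO and wild type overlapped. The shares of the type IV pair in Quaking KO and wild-type bodies overlapped too, at 13.4 to 31.7% in Quaking KO and 20.5 to 26.1% in wild type. Shares are not scaled to gene length, and they sum to the whole, so a higher share of the type IV pair lowers the others. In absolute terms the other 42 genes summed to 3643, 3965 and 5145 CPM in Sam68-labelled, 8653, 7172 and 5905 CPM in Quaking KO and 7975, 8446 and 10114 CPM in wild-type bodies at day 10. The sum over all 44 genes was 11646, 13022 and 13960.4 CPM in Sam68-labelled, 9988, 9198 and 8647 CPM in Quaking KO and 10793, 10905 and 12727 CPM in wild-type bodies. The totals of Sam68-labelled and wild-type bodies overlap, but their sums without the type IV pair do not.

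**Figure D2:**
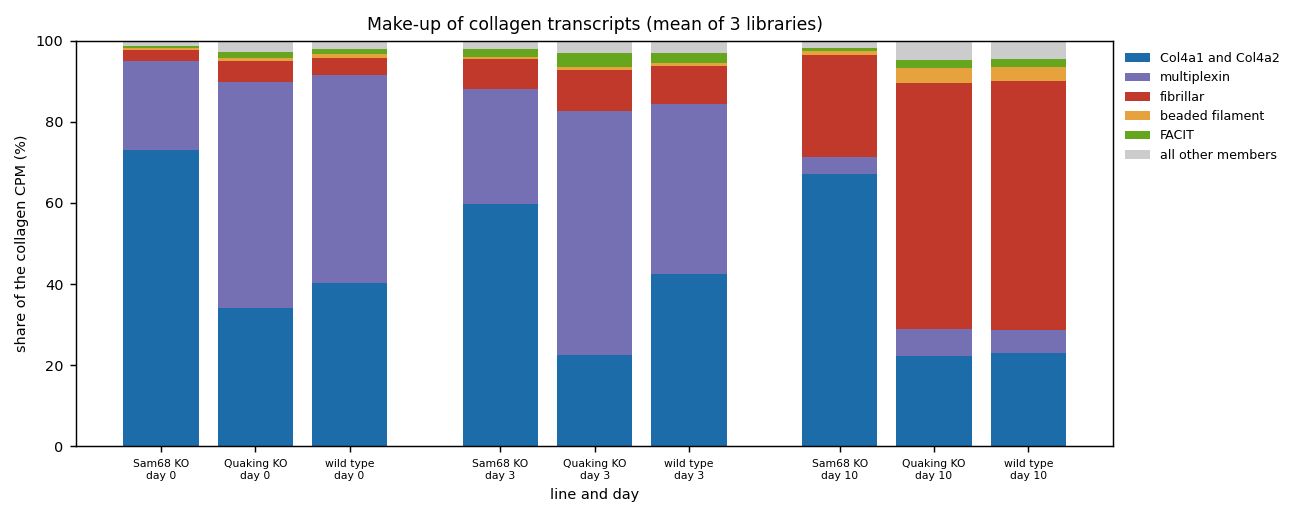
Share of summed collagen CPM by class as stacked bars from 0 to 100%, with the lines side by side at days 0, 3 and 10. Col4a1 and Col4a2 take 67.1% in Sam68-labelled, 22.4% in Quaking KO and 23.1% in wild-type bodies at day 10, where fibrillar chains fill most of the Quaking KO and wild-type bars.

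The Sam68-labelled line differed from wild type in 26 of 33 collagen genes tested at day 0 (10 higher, 16 lower), in 27 of 38 at day 3 (16 higher, 11 lower) and in 33 of 42 at day 10 (5 higher, 28 lower). The same comparison called 74.4%, 73.1% and 50.6% of all genes at these days. Over all genes 36.5% were higher and 37.9% lower at day 0, 36% and 37.1% at day 3, and 22.8% and 27.8% at day 10. The collagen genes' median log2FC was -0.29, 0.18 and -0.81 at days 0, 3 and 10, beside -0.01, 0.00 and -0.04 over all genes. At day 10, 20 collagen genes were called lower and 3 higher by at least 2-fold, when 18.2% of all genes were called at that size. Collagen genes near 0 entered no test at days 0 and 3, so the counts run over different genes at each day. Of the calls at day 10, 28 held when each library was left out in turn, and the others were Col1a1, Col22a1, Col27a1, Col4a3 and Col6a4.

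The Quaking KO line was called in 17 of 33 collagen genes at day 0 (4 higher, 13 lower), 10 of 38 at day 3 (2 higher, 8 lower) and 7 of 42 at day 10 (3 higher, 4 lower). Of all genes 39.7%, 7.01% and 11.7% were called at these days. Over all genes 19.4% were higher and 20.3% lower at day 0, 3.08% and 3.93% at day 3, and 4.96% and 6.71% at day 10. The collagen genes' median log2FC was -0.18, -0.03 and -0.07, beside 0.00, 0.01 and -0.02 over all genes. The lower collagen genes at day 10 were Col1a2, Col4a5, Col4a6 and Col17a1, and the higher were Col6a6, Col13a1 and Col25a1. Their number ranged from 4 to 10 when single libraries were left out, and was 4 without Quaking KO replicate 2 and 4 without wild-type replicate 2.

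**Figure D3:**
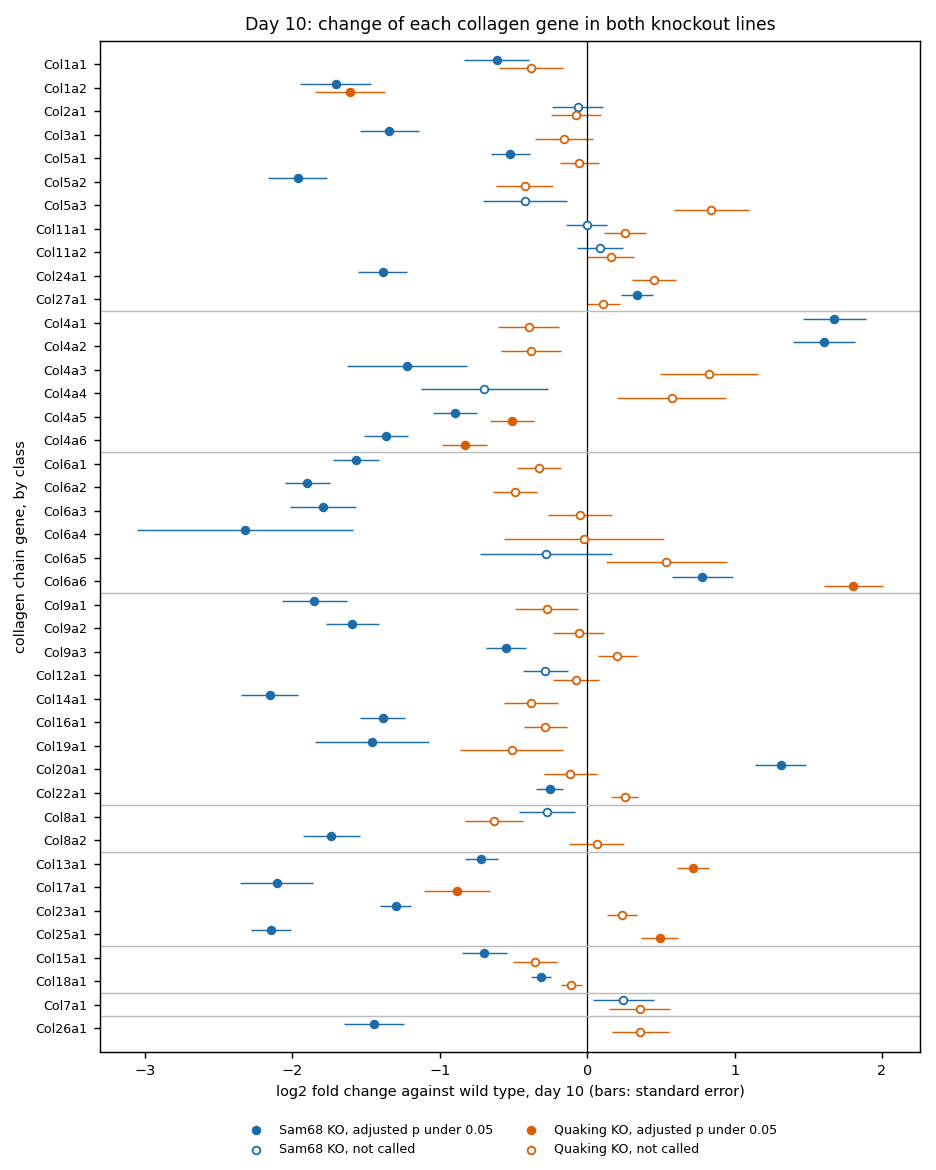
Log2 fold change against wild type of each collagen chain gene tested at day 10, for the Sam68-labelled and the Quaking KO line, with bars of 1 standard error and filled points for an adjusted p under 0.05. In the Sam68-labelled line 28 genes were called left of 0 and Col4a1 (1.68 ± 0.21), Col4a2 (1.60 ± 0.21) and Col20a1 (1.31 ± 0.17) lie right of 1, while 7 genes were called in the Quaking KO line.

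Col4a1 (ENSMUSG00000031502, chr8:11198423-11312826, minus strand) and Col4a2 (ENSMUSG00000031503, chr8:11312805-11449287, plus strand) encode the chains of the type IV collagen found in nearly all basement membranes. They lie head to head in GRCm38, with annotated starts 21 bases apart. Their start windows (250 bases before to 50 after the start, RefSeq, GRCm38.p6) are shown because both genes had log2FC of the same sign in every comparison between lines and the windows overlap by 78 bases, at chr8:11312777-11312854. Capitals mark the bases that lie in both windows, read on opposite strands, of Col4a1 (chr8:11312777-11313076, minus strand) and Col4a2 (chr8:11312555-11312854, plus strand).
Col4a1: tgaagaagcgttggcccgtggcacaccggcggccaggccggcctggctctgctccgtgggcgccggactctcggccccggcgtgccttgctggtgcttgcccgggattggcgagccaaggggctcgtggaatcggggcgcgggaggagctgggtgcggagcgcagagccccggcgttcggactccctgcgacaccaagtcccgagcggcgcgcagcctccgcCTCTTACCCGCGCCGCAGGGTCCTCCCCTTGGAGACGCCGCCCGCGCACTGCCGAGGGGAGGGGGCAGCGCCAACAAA
Col4a2: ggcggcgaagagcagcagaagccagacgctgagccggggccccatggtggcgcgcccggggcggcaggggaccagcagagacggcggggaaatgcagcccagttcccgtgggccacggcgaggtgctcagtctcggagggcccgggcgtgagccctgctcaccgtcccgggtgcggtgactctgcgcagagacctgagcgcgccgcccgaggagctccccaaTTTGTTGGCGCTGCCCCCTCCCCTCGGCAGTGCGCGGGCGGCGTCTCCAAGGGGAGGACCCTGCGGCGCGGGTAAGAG
The shared stretch had a GC content of 73.1% and held 1 match to GGGCGG (a GC box, either strand) and none to CCAAT or TATAAA. RefSeq windows were matched for 35 of the 44 genes, 38 windows in all. GGGCGG was in 60.5% of these and in 35.7% of all 32851 windows of the same length, CCAAT in 34.2% and 37.4%, and TATAAA in 13.2% and 13.6%, on either strand. The median GC content was 59.8% in collagen windows and 52.7% in all windows. A match is a run of letters and says nothing of whether a factor binds there.

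The type IV pair was higher in Sam68-labelled libraries at each day and lower in Quaking KO libraries at days 0 and 3. Col4a1 stood at 920.1, 875 and 849.9 CPM in Sam68-labelled, 211, 199 and 199 CPM in Quaking KO and 301, 319 and 293 CPM in wild-type libraries at day 0. At day 3 it stood at 525, 542 and 464 CPM in Sam68-labelled, 127, 111 and 113 CPM in Quaking KO and 252, 257 and 265 CPM in wild-type libraries. The lines did not overlap at either day, with Sam68-labelled libraries above and Quaking KO libraries below wild type. The log2FC against wild type was 1.62 ± 0.04 for Sam68-labelled and -0.60 ± 0.04 for Quaking KO libraries at day 0 (adjusted p = 7.2e-17 and 4.12e-10), and 1.01 ± 0.06 and -1.14 ± 0.06 at day 3 (adjusted p = 1.19e-09 and 9.47e-09). At day 10 Col4a1 stood at 5852, 6714 and 6504 CPM in Sam68-labelled, 959, 1461 and 2004 CPM in Quaking KO and 1973, 1846 and 1919.9 CPM in wild-type bodies. Every Sam68-labelled body lay above every other body, while the Quaking KO bodies ranged widely and overlapped wild type. The log2FC at day 10 was 1.68 ± 0.21 in the Sam68-labelled line (adjusted p = 6.84e-05) and -0.40 ± 0.21 in the Quaking KO line (adjusted p = 0.267, not called). For neither Col4a1 nor Col4a2 was a change of the Quaking KO difference called between days 3 and 10. An end of that difference is therefore not shown.

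Col4a2 gave a like picture at a lower level per kb. It stood at 285, 268 and 259.6 CPM in Sam68-labelled, 67.2, 61.5 and 60.04 CPM in Quaking KO and 88.9, 93.6 and 89.05 CPM in wild-type libraries at day 0. At day 3 Col4a2 stood at 179, 183 and 158 CPM in Sam68-labelled, 43.5, 35.9 and 34.8 CPM in Quaking KO and 80.5, 82.5 and 84.9 CPM in wild-type libraries. Its day 10 levels were 2151, 2343 and 2311 CPM in Sam68-labelled, 377, 564 and 737 CPM in Quaking KO and 845, 613 and 693 CPM in wild-type bodies. Sam68-labelled libraries lay above both other lines at each day, and Quaking KO and wild type overlapped at day 10 but not before. Its log2FC against wild type was 1.67 ± 0.04, 1.10 ± 0.07 and 1.60 ± 0.21 in the Sam68-labelled line at days 0, 3 and 10, all called, and -0.54 ± 0.04, -1.12 ± 0.07 and -0.38 ± 0.21 in the Quaking KO line, the last not called. Sam68-labelled libraries set directly against Quaking KO libraries gave 2.22 ± 0.04, 2.16 ± 0.06 and 2.07 ± 0.22 for Col4a1 and 2.21 ± 0.04, 2.22 ± 0.07 and 1.99 ± 0.21 for Col4a2 at these days. The ratio of Col4a1 to Col4a2 per kb within a library moved little, with group means between 2.32 (Quaking KO, day 10) and 2.98 (wild type, day 0).

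**Figure D4:**
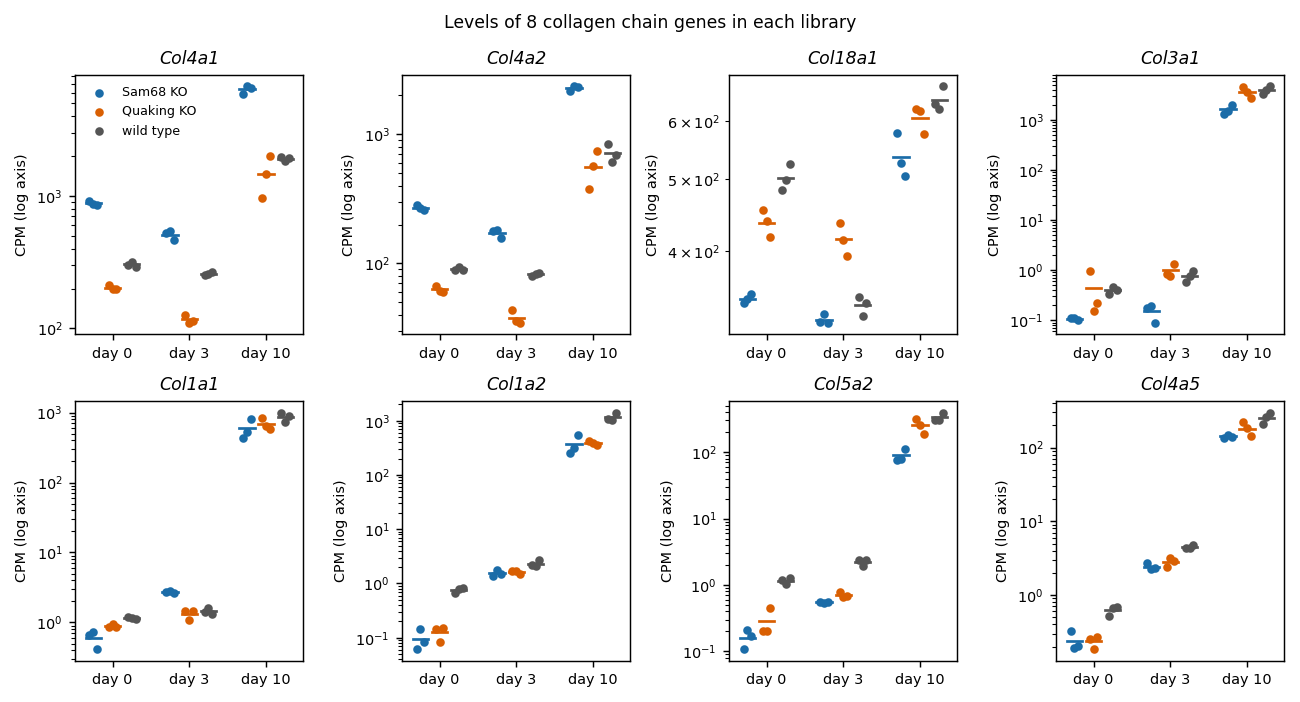
Level in CPM (log axis) of 8 collagen chain genes in each library, with lines in the order Sam68-labelled, Quaking KO and wild type at days 0, 3 and 10, where points are libraries and bars are means of 3. Col4a1 and Col4a2 are highest in Sam68-labelled libraries at each day, and Col1a2 is lower in Sam68-labelled and Quaking KO libraries than in wild type at each day.

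Col4a5 and Col4a6, neighbours on the X chromosome with annotated starts 1309 bases apart, encode chains of another type IV network, found in some basement membranes such as those of smooth muscle. Both were called lower than wild type in the Sam68-labelled and the Quaking KO line at days 3 and 10. Col4a5 stood at 136, 149 and 139 CPM in Sam68-labelled, 220.4, 182 and 142 CPM in Quaking KO and 206, 259 and 298 CPM in wild-type bodies at day 10. Sam68-labelled bodies lay below wild type, whereas the highest Quaking KO body lay above the lowest wild-type body. The log2FC was -0.90 ± 0.15 in the Sam68-labelled line (adjusted p = 0.000436) and -0.51 ± 0.15 in the Quaking KO line (adjusted p = 0.0473). The Quaking KO call was lost without replicate 2 or 3 of either group (adjusted p from 0.109 to 0.15), with RLE scaling (0.0519) and in a fit of the 6 libraries compared (0.11). At days 0 and 3 Col4a5 was -1.27 ± 0.26 and -0.86 ± 0.11 in the Sam68-labelled line and -1.39 ± 0.26 and -0.66 ± 0.11 in the Quaking KO line.

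Col4a6 stood at 47.1, 50.2 and 44.8 CPM in Sam68-labelled, 80.9, 65.3 and 55.3 CPM in Quaking KO and 92.5, 116 and 144 CPM in wild-type bodies at day 10. Neither line overlapped wild type, with log2FC of -1.37 ± 0.15 in the Sam68-labelled and -0.83 ± 0.15 in the Quaking KO line. At day 3 it was -0.97 ± 0.14 in the Sam68-labelled and -0.47 ± 0.14 in the Quaking KO line, where the call was lost whichever single Quaking KO or wild-type library was left out (adjusted p from 0.0699 to 0.151). The ratio of Col4a1 to Col4a5 per kb was 38.8, 40.5 and 41.99 in Sam68-labelled, 3.92, 7.23 and 12.7 in Quaking KO and 8.62, 6.42 and 5.80 in wild-type bodies at day 10, so that the main and the alternative chains parted in the Sam68-labelled line.

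Col4a3 and Col4a4, chains of the glomerular basement membrane, start 72 bases apart on chromosome 1 and were rare, with at most 0.780 and 0.267 CPM in a library. Col4a3 was called higher in Sam68-labelled libraries at day 3 (0.82 ± 0.33) and lower at day 10 (-1.22 ± 0.41). The call at day 3 was lost without Sam68-labelled replicate 2 or any wild-type replicate (adjusted p from 0.0657 to 0.179), and that at day 10 without any Sam68-labelled replicate or wild-type replicate 2 or 3 (adjusted p from 0.0565 to 0.093). Of the 50-base windows of Col4a3, 4.66% also occur in another gene. Col4a4 was called higher in Sam68-labelled libraries at day 3 (1.10 ± 0.39), a call lost without Sam68-labelled replicate 1 or wild-type replicate 2 (adjusted p = 0.053 and 0.103), and DESeq2 gave adjusted p of 0.176 and 0.0865 for Col4a3 and Col4a4 at that day.

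Among fibrillar chains, partners that build the same fibril did not always move alike. Col1a2 (ENSMUSG00000029661, chr6:4504814-4541544, plus strand) and Col1a1 (ENSMUSG00000001506, chr11:94936224-94953042, plus strand) encode the chains of type I collagen, the main fibril of skin, bone and tendon. The start window of Col1a2 (chr6:4505368-4505667, plus strand, RefSeq, GRCm38.p6) is shown because the gene was lower than wild type in the Sam68-labelled and the Quaking KO line at all 3 days. Capitals mark 2 matches to GGGCGG and 2 to CCAAT, of which the last lies on the opposite strand, and TATAAA had no match.
Col1a2: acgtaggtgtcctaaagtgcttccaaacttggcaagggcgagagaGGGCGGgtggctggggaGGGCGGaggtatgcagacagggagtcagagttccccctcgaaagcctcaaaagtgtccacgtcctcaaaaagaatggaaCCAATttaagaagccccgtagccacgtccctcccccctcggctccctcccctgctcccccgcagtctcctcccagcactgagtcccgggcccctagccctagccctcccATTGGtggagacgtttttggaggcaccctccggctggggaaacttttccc
Col1a2 stood at 0.0621, 0.144 and 0.0837 CPM in Sam68-labelled, 0.147, 0.0844 and 0.154 CPM in Quaking KO and 0.678, 0.795 and 0.833 CPM in wild-type libraries at day 0. At day 3 it stood at 1.40, 1.77 and 1.52 CPM in Sam68-labelled, 1.72, 1.69 and 1.49 CPM in Quaking KO and 2.16, 2.09 and 2.71 CPM in wild-type libraries. At day 10 it stood at 253, 317 and 550.0 CPM in Sam68-labelled, 427, 388 and 359 CPM in Quaking KO and 1066, 1048 and 1409.9 CPM in wild-type bodies. Sam68-labelled and Quaking KO libraries lay below all wild-type values at each day and overlapped each other. The log2FC in the Sam68-labelled line was -2.88 ± 0.30, -0.54 ± 0.14 and -1.71 ± 0.24 at days 0, 3 and 10 (adjusted p = 5.88e-08, 0.0027 and 0.000138). In the Quaking KO line it was -2.58 ± 0.28, -0.51 ± 0.14 and -1.61 ± 0.24 (adjusted p = 6.75e-07, 0.0369 and 0.00197). The Quaking KO call at day 3 was lost without Quaking KO replicate 2 or 3 or wild-type replicate 3 (adjusted p = 0.0636, 0.127 and 0.187) and in a fit of the 6 libraries compared (0.0591). Both comparisons share the wild-type libraries. Sam68-labelled against Quaking KO libraries gave no call, with -0.30 ± 0.44, -0.03 ± 0.15 and -0.10 ± 0.23 at the 3 days.

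Col1a1 stood at 434, 520.0 and 822 CPM in Sam68-labelled, 830.2, 635 and 584 CPM in Quaking KO and 997, 734 and 887 CPM in wild-type bodies at day 10, and both other lines overlapped wild type. It was called lower in the Sam68-labelled line (-0.62 ± 0.22, adjusted p = 0.0348), a call lost without Sam68-labelled replicate 1 or 2 or wild-type replicate 1 or 3 (adjusted p = 0.142, 0.128, 0.0908 and 0.0794) and with DESeq2 (0.0661). The Quaking KO line had -0.38 ± 0.22 and was not called. At day 3 it stood at 2.72, 2.83 and 2.60 CPM in Sam68-labelled, 1.44, 1.08 and 1.46 CPM in Quaking KO and 1.42, 1.59 and 1.34 CPM in wild-type libraries. Sam68-labelled libraries were then above all others (0.93 ± 0.13 against wild type, adjusted p = 1.19e-05). At day 0 Col1a1 stood at 0.668, 0.738 and 0.418 CPM in Sam68-labelled and 1.21, 1.17 and 1.13 CPM in wild-type libraries. It was called lower in that line, as Col1a2 was. Quaking KO libraries, at 0.862, 0.945 and 0.855 CPM, were not called. The ratio of Col1a1 to Col1a2 per kb at day 10 was 3.25, 3.11 and 2.83 in Sam68-labelled, 3.68, 3.10 and 3.08 in Quaking KO and 1.77, 1.33 and 1.19 in wild-type bodies, with both other lines above wild type.

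Col3a1 (ENSMUSG00000026043, chr1:45311538-45349706, plus strand), the chain of type III collagen in vessel walls and loose connective tissue, had the highest level per kb of the fibrillar chains at day 10. It stood at 1346, 1528 and 2007 CPM in Sam68-labelled, 4492, 3609 and 2779.5 CPM in Quaking KO and 3281, 3946 and 4697 CPM in wild-type bodies. All Sam68-labelled bodies lay below all others, and Quaking KO and wild type overlapped. The log2FC was -1.34 ± 0.20 in the Sam68-labelled line (adjusted p = 0.000197) and -0.16 ± 0.19 in the Quaking KO line (adjusted p = 0.67). At day 3, when Col3a1 was low, it stood at 0.173, 0.193 and 0.0895 CPM in Sam68-labelled, 0.835, 0.767 and 1.36 CPM in Quaking KO and 0.586, 0.749 and 0.981 CPM in wild-type libraries, with a log2FC of -2.31 ± 0.35 in the Sam68-labelled line. At day 0 a single Quaking KO library, replicate 1, set the Quaking KO value: with 0.954, 0.152 and 0.222 CPM in the 3 replicates the log2FC was 0.11 ± 0.44 and not called, and without replicate 1 it was -1.10 with an adjusted p of 0.0125.

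Type V collagen starts the assembly of fibrils, and its chains Col5a1 and Col5a2 parted as well. Col5a2 stood at 0.551, 0.536 and 0.552 CPM in Sam68-labelled, 0.788, 0.665 and 0.672 CPM in Quaking KO and 2.37, 1.95 and 2.41 CPM in wild-type libraries at day 3. At day 0 it stood at 0.109, 0.208 and 0.167 CPM in Sam68-labelled, 0.202, 0.203 and 0.445 CPM in Quaking KO and 1.19, 1.04 and 1.26 CPM in wild-type libraries. Both other lines lay below wild type at both days, with log2FC of -2.01 ± 0.16 in the Sam68-labelled and -1.67 ± 0.15 in the Quaking KO line at day 3, and -2.75 ± 0.28 and -2.04 ± 0.25 in these lines at day 0. At day 10 Col5a2 stood at 75.3, 79.4 and 113 CPM in Sam68-labelled, 318, 259 and 187 CPM in Quaking KO and 309, 304 and 393 CPM in wild-type bodies. It was lower in the Sam68-labelled line (-1.96 ± 0.20) and overlapped wild type in the Quaking KO line (-0.42 ± 0.19, not called). The change of the Quaking KO difference between days 3 and 10 was itself called (1.26 ± 0.28, adjusted p = 0.0249). It was lost without any day 3 library of the Quaking KO line, its replicate 2 of day 10, day 3 replicate 1 or 3 of wild type or wild-type day 10 replicate 2 (adjusted p from 0.0509 to 0.0786).

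Col5a1 was lower in the Sam68-labelled line at days 0 and 10 (-0.42 ± 0.07 and -0.52 ± 0.13), and the Quaking KO line had 0.09 ± 0.06, -0.09 ± 0.05 and -0.05 ± 0.13 at the 3 days, none called. The ratio of Col5a1 to Col5a2 per kb at day 10 was 5.26, 5.41 and 4.25 in Sam68-labelled, 2.23, 2.27 and 2.53 in Quaking KO and 1.87, 1.80 and 1.72 in wild-type bodies, without overlap between lines. Col5a3, an alternative type V chain, had its highest level in stem cells, at 9.32 ± 0.0760 CPM in Sam68-labelled, 8.08 ± 0.743 CPM in Quaking KO and 5.99 ± 0.0649 CPM in wild-type libraries (SD, n = 3 each). It was called higher at day 0 in the Sam68-labelled (0.72 ± 0.07) and the Quaking KO line (0.42 ± 0.07).

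The cartilage fibril chains Col2a1, Col11a1 and Col11a2 differed between lines at days 0 and 3 and were not called in either line at day 10. Col2a1, the chain of type II collagen, stood at 2.78, 2.65 and 2.93 CPM in Sam68-labelled, 2.99, 3.02 and 2.67 CPM in Quaking KO and 4.98, 4.997 and 5.001 CPM in wild-type libraries at day 0. Both other lines lay below wild type (-0.76 ± 0.08 in the Sam68-labelled and -0.80 ± 0.08 in the Quaking KO line). At day 3 it stood at 29.1, 31.3 and 29.5 CPM in Sam68-labelled, 16.6, 15.7 and 15.7 CPM in Quaking KO and 20.8, 18.6 and 19.4 CPM in wild-type libraries. Sam68-labelled libraries were then above wild type (0.64 ± 0.06) and Quaking KO libraries below it (-0.30 ± 0.06). At day 10 Col2a1 averaged 82.9 ± 18.4 CPM in Sam68-labelled, 80.6 ± 15.4 CPM in Quaking KO and 83.5 ± 6.36 CPM in wild-type bodies. Col11a1 was lower in the Sam68-labelled line at days 0 and 3 (-0.61 ± 0.10 and -0.43 ± 0.07), while Col11a2 was higher (0.93 ± 0.16 and 0.54 ± 0.14).

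Of the minor fibrillar chains, Col27a1, known from growth cartilage, stood at 10.6, 9.19 and 9.81 CPM in Sam68-labelled, 2.53, 2.38 and 2.55 CPM in Quaking KO and 3.59, 3.42 and 3.37 CPM in wild-type libraries at day 0. The lines did not overlap (1.60 ± 0.07 in the Sam68-labelled and -0.49 ± 0.09 in the Quaking KO line). Its difference at day 10 in the Sam68-labelled line (0.34 ± 0.11) lost its call without replicate 2 of either group (adjusted p = 0.059 and 0.0893). Col24a1 was higher in the Sam68-labelled line at day 3 (0.59 ± 0.17) and lower at day 10, at 0.680, 0.695 and 0.817 CPM in Sam68-labelled and 1.72, 1.67 and 2.13 CPM in wild-type bodies (-1.39 ± 0.17).

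Type VI collagen forms beaded filaments around cells from Col6a1, Col6a2 and a further chain, mostly Col6a3. All 3 were called lower in Sam68-labelled bodies at day 10. Of all 6 type VI genes 4 were lower there and 1 was higher, beside 27.8% and 22.8% of all genes. Col6a3 stood at 28.7, 41.8 and 57.8 CPM in Sam68-labelled, 180.4, 124 and 117 CPM in Quaking KO and 135, 137 and 156 CPM in wild-type bodies, with a log2FC of -1.79 ± 0.22 in the Sam68-labelled and -0.05 ± 0.22 in the Quaking KO line. Col6a1 stood at 54.9, 60.3 and 68.1 CPM in Sam68-labelled, 169.7, 139 and 116 CPM in Quaking KO and 138, 181 and 205 CPM in wild-type bodies (-1.57 ± 0.15 and -0.33 ± 0.15 in these lines). Col6a2 stood at 23.5, 22.6 and 28.2 CPM in Sam68-labelled, 77.3, 62.7 and 53.2 CPM in Quaking KO and 72.2, 90.7 and 104 CPM in wild-type bodies (-1.90 ± 0.15, and in the Quaking KO line -0.49 ± 0.15 with an adjusted p of 0.0547). For each chain the Sam68-labelled bodies lay below all others, and Quaking KO and wild type overlapped without a call. The ratio of Col6a1 to Col6a2 per kb averaged 0.307 in Sam68-labelled, 0.379 in Quaking KO and 0.394 in wild-type libraries at day 3. At day 10 it averaged 4.70 in Sam68-labelled, 4.18 in Quaking KO and 3.72 in wild-type bodies, so that in each line Col6a2 had the higher level per kb at day 3 and Col6a1 at day 10.

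Col6a4, Col6a5 and Col6a6 encode alternatives to the Col6a3 chain. Col6a6 stood at 1.63, 1.86 and 1.61 CPM in Sam68-labelled, 4.45, 3.28 and 2.45 CPM in Quaking KO and 0.977, 0.965 and 0.911 CPM in wild-type bodies at day 10. It was the collagen gene called higher by at least 2-fold in Quaking KO bodies, where 2.83% of all genes were called at that size. The lines did not overlap, and both other lines were called higher than wild type (0.78 ± 0.21 in the Sam68-labelled and 1.81 ± 0.20 in the Quaking KO line, adjusted p = 0.00842 and 0.000424). Col6a5 had its highest level in stem cells, at 4.43, 4.75 and 4.02 CPM in Sam68-labelled, 2.18, 2.31 and 2.21 CPM in Quaking KO and 6.18, 5.95 and 5.001 CPM in wild-type libraries. It was called lower there in the Sam68-labelled (-0.29 ± 0.09) and the Quaking KO line (-1.37 ± 0.10), and reached at most 0.312 CPM in a library at day 10. Between 3.42% and 3.70% of the 50-base windows of Col6a5 and Col6a6 also occur in another gene. The difference of Col6a4 at day 10 (-2.32 ± 0.73 in the Sam68-labelled line) rested on means of 0.0350 ± 0.0376 CPM in Sam68-labelled and 0.175 ± 0.0338 CPM in wild-type bodies. It was lost without Sam68-labelled replicate 2 or 3 or wild-type replicate 2 (adjusted p = 0.0782, 0.0751 and 0.0569).

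In Sam68-labelled bodies 7 of 9 fibril-associated chains were called lower at day 10 and 1 higher, beside 27.8% and 22.8% of all genes. Col14a1, which decorates type I fibrils, stood at 6.60, 7.86 and 12.3 CPM in Sam68-labelled, 35.1, 28.2 and 26.03 CPM in Quaking KO and 39.4, 35.9 and 39.2 CPM in wild-type bodies (-2.15 ± 0.19 in the Sam68-labelled and -0.38 ± 0.18 in the Quaking KO line). Col9a1, a chain on the surface of cartilage fibrils, stood at 15.3, 10.5 and 22.6 CPM in Sam68-labelled, 46.9, 48.96 and 45.7 CPM in Quaking KO and 47.5, 65.9 and 55.04 CPM in wild-type bodies (-1.85 ± 0.22 in the Sam68-labelled line). Sam68-labelled bodies lay lowest in both genes. Its partner Col9a2 stood at 13.2, 10.6 and 18.2 CPM in Sam68-labelled, 46.5, 40.9 and 31.98 CPM in Quaking KO and 38.9, 39.3 and 43.98 CPM in wild-type bodies (-1.59 ± 0.18 in the Sam68-labelled line). Col16a1, a minor fibril-associated chain, stood at 10.1, 13.4 and 14.6 CPM in Sam68-labelled, 31.97, 26.7 and 21.5 CPM in Quaking KO and 30.1, 31.03 and 34.8 CPM in wild-type bodies (-1.39 ± 0.15 in that line). In these 4 genes the Sam68-labelled bodies lay below all others, and no Quaking KO difference was called. Col9a3 (-0.55 ± 0.14), Col19a1 (-1.46 ± 0.39, at most 0.312 CPM) and Col22a1 (-0.25 ± 0.09) completed the list. Col22a1, a chain of the muscle-tendon junction, lost its call without any Sam68-labelled replicate or wild-type replicate 1 or 3 (adjusted p from 0.0564 to 0.185) and in a fit of the 6 libraries compared (0.0583). Exons of Col9a3 overlap the gene Tcfl5 on the other strand, and reads of the 2 genes cannot be told apart if counting did not use strand, a setting not given in the sources used here.

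Col20a1 was the fibril-associated chain that was higher. It stood at 1.55, 1.94 and 1.66 CPM in Sam68-labelled, 0.569, 0.489 and 0.684 CPM in Quaking KO and 1.19, 1.38 and 0.997 CPM in wild-type libraries at day 0. At day 3 it stood at 1.09, 1.34 and 1.37 CPM in Sam68-labelled, 0.495, 0.391 and 0.496 CPM in Quaking KO and 0.524, 0.220 and 0.253 CPM in wild-type libraries. At day 10 it stood at 7.12, 7.68 and 8.25 CPM in Sam68-labelled, 3.20, 2.51 and 2.68 CPM in Quaking KO and 3.86, 2.26 and 2.82 CPM in wild-type bodies. Sam68-labelled libraries lay above all others at each of the 3 days, with log2FC of 0.62 ± 0.15, 1.96 ± 0.25 and 1.31 ± 0.17 against wild type. In the Quaking KO line it was lower at day 0 (-1.05 ± 0.19) and not called later (0.47 ± 0.30 and -0.12 ± 0.18). Col12a1, a chain of tendon and ligament, was lower in both other lines than in wild type at days 0 and 3 (-1.06 ± 0.25 and -0.80 ± 0.25 in the Sam68-labelled, -1.29 ± 0.26 and -1.14 ± 0.25 in the Quaking KO line). It was not called at day 10. The Quaking KO call at day 3 was lost without wild-type replicate 2 (adjusted p = 0.0672). With DESeq2 the Sam68-labelled call of Col12a1 at day 3 was lost (adjusted p = 0.0592).

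In stem cells Col9a2 stood at 1.75, 2.18 and 1.67 CPM in Sam68-labelled, 6.35, 6.73 and 5.57 CPM in Quaking KO and 4.96, 4.85 and 5.29 CPM in wild-type libraries. Col22a1 stood at 0.901, 0.898 and 0.987 CPM in Sam68-labelled, 2.15, 2.06 and 2.02 CPM in Quaking KO and 2.05, 2.09 and 2.22 CPM in wild-type libraries. Both were lower in the Sam68-labelled line (-1.34 ± 0.11 and -1.10 ± 0.12), without overlap with wild type. In Quaking KO stem cells Col9a2 was higher (0.29 ± 0.09), a call lost without replicate 2 of either group (adjusted p = 0.0791 and 0.0532).

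The 4 transmembrane chains, which stay anchored in the cell surface, were all called lower in Sam68-labelled bodies at day 10, beside 27.8% of all genes. Col25a1, which acts in motor innervation of muscle, stood at 5.29, 5.95 and 6.63 CPM in Sam68-labelled, 43.1, 36.7 and 29.2 CPM in Quaking KO and 26.1, 23.6 and 26.4 CPM in wild-type bodies. Col13a1, a chain of the neuromuscular junction, stood at 9.34, 9.32 and 9.26 CPM in Sam68-labelled, 28.7, 24.5 and 20.8 CPM in Quaking KO and 12.9, 15.001 and 16.3 CPM in wild-type bodies. For both genes the lines did not overlap, with Sam68-labelled bodies below wild type (-2.15 ± 0.13 and -0.72 ± 0.11) and Quaking KO bodies above it (0.49 ± 0.12 and 0.72 ± 0.11, adjusted p = 0.0263 and 0.00227). The Quaking KO call of Col25a1 was lost without Quaking KO replicate 1 or 2 or wild-type replicate 2 (adjusted p = 0.0902, 0.0749 and 0.0908). Col23a1 stood at 11.8, 11.2 and 15.2 CPM in Sam68-labelled, 37.1, 37.7 and 33.7 CPM in Quaking KO and 29.4, 29.04 and 32.1 CPM in wild-type bodies, with -1.30 ± 0.11 in the Sam68-labelled line and 0.23 ± 0.10, not called, in the Quaking KO line. Col17a1, the collagen of hemidesmosomes, was lower in both lines (-2.11 ± 0.25 in the Sam68-labelled and -0.88 ± 0.22 in the Quaking KO line) at no more than 1.13 CPM. Its Quaking KO call was lost without replicate 2 or 3 of either group (adjusted p from 0.0746 to 0.108) and in a fit of the 6 libraries compared (0.0612).

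Col18a1 (ENSMUSG00000001435, chr10:77052178-77166548, minus strand), the multiplexin of basement membranes from which endostatin is cut, stood at 339.6, 344 and 349.5 CPM in Sam68-labelled, 454, 439 and 417 CPM in Quaking KO and 484, 499 and 524 CPM in wild-type libraries at day 0. At day 10 it stood at 577, 526 and 505 CPM in Sam68-labelled, 623, 618 and 576 CPM in Quaking KO and 633, 623 and 669 CPM in wild-type bodies. Sam68-labelled libraries lay below wild type at both days (-0.46 ± 0.03 and -0.31 ± 0.07), opposite in sign to Col4a1 and Col4a2. In the Quaking KO line Col18a1 was lower at day 0 (-0.21 ± 0.03), higher at day 3 (0.29 ± 0.05) and not called at day 10 (-0.11 ± 0.07). Col15a1, the other multiplexin, was higher in the Sam68-labelled line at day 0 (1.37 ± 0.33, at 0.295 ± 0.0201 CPM in Sam68-labelled and 0.120 ± 0.0516 CPM in wild-type libraries) and lower at day 10 (-0.70 ± 0.15).

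In the remaining classes, Col8a2, a short chain of the membranes under corneal endothelium, stood at 18.5, 19.2 and 15.7 CPM in Sam68-labelled, 76.2, 64.8 and 41.2 CPM in Quaking KO and 47.1, 58.1 and 65.9 CPM in wild-type bodies at day 10. It was lower in the Sam68-labelled line (-1.74 ± 0.19) and overlapped wild type in the Quaking KO line (0.06 ± 0.19), and its partner Col8a1 was called in neither (-0.27 ± 0.19 and -0.63 ± 0.19). At days 0 and 3 Col8a2 was instead called higher in the Sam68-labelled (0.29 and 0.47) and the Quaking KO line (0.39 and 0.33). Leaving out single libraries ended the Sam68-labelled call at day 0 and the Quaking KO call at day 3. Col26a1, known from testis and ovary, stood at 6.48, 5.07 and 9.63 CPM in Sam68-labelled, 20.5, 23.995 and 27.9 CPM in Quaking KO and 16.2, 19.7 and 19.7 CPM in wild-type bodies at day 10. It was lower in the Sam68-labelled line at days 0, 3 and 10 (-1.02 ± 0.22, -0.87 ± 0.18 and -1.44 ± 0.20) and higher in the Quaking KO line at day 0 (0.91 ± 0.17). Col7a1, the anchoring fibril chain of skin, was higher in the Sam68-labelled line at days 0 and 3 (0.49 ± 0.09 and 0.73 ± 0.11) and not called at day 10 (0.25 ± 0.21). Col10a1, the chain of hypertrophic cartilage, and Col28a1 entered no test, with at most 0.0390 and 0.104 CPM in a library.

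Both comparisons with wild type share the wild-type libraries, so nothing is read from how many genes they have in common. Called lower in both were Col12a1, Col18a1, Col1a2, Col2a1, Col4a5, Col5a2, Col6a5 and Col9a3 at day 0, Col12a1, Col1a2, Col4a5, Col4a6 and Col5a2 at day 3 and Col17a1, Col1a2, Col4a5 and Col4a6 at day 10. Called higher in both were Col5a3 and Col8a2 at day 0, Col8a2 at day 3 and Col6a6 at day 10. Genes higher in the Sam68-labelled and lower in the Quaking KO line were Col4a1, Col4a2, Col20a1 and Col27a1 at day 0, and Col4a1, Col4a2 and Col2a1 at day 3. Genes lower in the Sam68-labelled and higher in the Quaking KO line were Col26a1 and Col9a2 at day 0, and Col13a1 and Col25a1 at day 10. Tested directly, without wild type, the Sam68-labelled line differed from the Quaking KO line in 18 of 33 collagen genes at day 0 (10 higher, 8 lower), 20 of 38 at day 3 (13 higher, 7 lower) and 30 of 42 at day 10 (3 higher, 27 lower). Of all genes 75.9%, 72.1% and 56.6% were called at these days. Over all genes 38.9% were higher and 37% lower at day 0, 35.3% and 36.8% at day 3, and 25.9% and 30.7% at day 10. The higher collagen genes at day 10 were Col4a1, Col4a2 and Col20a1, and the largest difference among the lower was that of Col25a1 (-2.64 ± 0.13).

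The difference of a line from wild type also changed between days. For the Sam68-labelled line the change was called in 12 of 39 collagen genes between days 0 and 3 (9 higher, 3 lower) and in 23 of 42 between days 3 and 10 (3 higher, 20 lower), when 33.8% (18% higher, 15.9% lower) and 54.2% (30.3% higher, 23.9% lower) of all genes were called. For the Quaking KO line it was called in 10 of 37 (7 higher, 3 lower) and 6 of 42 collagen genes (4 higher, 2 lower), when 15.9% (9.45% higher, 6.45% lower) and 3.58% (2.03% higher, 1.55% lower) of all genes were called. The count of 6 in the Quaking KO line between days 3 and 10 was 1, 3 and 3 without Quaking KO day 3 replicate 1, 2 and 3, 2 without Quaking KO day 10 replicate 2, and 2 and 2 without wild-type day 3 replicate 2 and 3.

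The genes that modify, fold, cut, cross-link, bind and degrade collagen were read from lists of these steps. Between days 3 and 10 of wild type, 15 of 15 genes of prolyl and lysyl hydroxylation and glycosylation rose. So did 9 of 12 of folding and export, 5 of 7 of propeptide cleavage, 4 of 5 lysyl oxidases, 10 of 10 receptors and 7 of 8 genes of breakdown, beside 39.6% of all genes. In Sam68-labelled bodies 10 of 15 hydroxylation genes were higher and 1 lower than wild type at day 10 (median log2FC 0.43, beside -0.04 over all genes), when 22.8% of all genes were higher and 27.8% lower. Plod2, which hydroxylates lysines for cross-links, averaged 881 ± 37.02 CPM in Sam68-labelled, 266 ± 27.2 CPM in Quaking KO and 357 ± 22.7 CPM in wild-type bodies (1.25 ± 0.09 and -0.45 ± 0.09 in the Sam68-labelled and the Quaking KO line). Plod3 and P3h1, a lysyl and a prolyl hydroxylase, were higher in the Sam68-labelled line (0.62 ± 0.06 and 0.56 ± 0.06) and P3h3 was lower (-0.85 ± 0.09). Quaking KO bodies had 5 genes of the list lower (median -0.21, beside 6.71% of all genes called lower), among them the prolyl hydroxylase subunits P4ha1 (-0.69 ± 0.11) and P4ha2 (-0.79 ± 0.12).

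The counts that follow stand beside 22.8% of all genes higher and 27.8% lower in Sam68-labelled bodies, so that those of receptors, for example, lie near the share of all genes on the higher side. Folding and export genes were higher in 8 and lower in 1 of 12 cases in Sam68-labelled bodies (median 0.28). They included Sec24d, a coat protein of the vesicles that carry procollagen (0.51 ± 0.06), Sparc, a collagen-binding matrix protein (1.22 ± 0.11), and Creb3l1, a transcription factor of secretion (1.54 ± 0.12). Propeptide cleavage, which trims fibrillar procollagens, had 5 of 8 lower (median -0.48), with the protease Adamts2 at -0.72 ± 0.13 and the enhancers Pcolce and Pcolce2 at -0.50 ± 0.09 and -1.51 ± 0.20. Of the lysyl oxidases, which cross-link collagen, Loxl2 was higher (0.91 ± 0.07) and Lox, Loxl1 and Loxl3 were lower (-0.66 ± 0.19, -0.40 ± 0.14 and -0.45 ± 0.10). Of 10 receptors 3 were higher, with the integrin subunit Itgb1 at 0.60 ± 0.07, and 5 were lower, with the uptake receptor Mrc2 at -1.26 ± 0.09. Of 9 genes of breakdown 1 was higher and 5 were lower, with the gelatinases Mmp9 and Mmp2 at -2.72 ± 0.24 and -0.70 ± 0.09. In Quaking KO bodies Mmp2 was higher (0.33 ± 0.09), as were Mmp14 and Timp2, the protease and inhibitor that act with it (0.30 ± 0.07 and 0.28 ± 0.08).

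Summed levels of cell type markers were set beside those of the collagens. Parietal and visceral endoderm markers summed to 1931 to 2056 CPM in Sam68-labelled, 533 to 574 CPM in Quaking KO and 599 to 655 CPM in wild-type libraries at day 0. At day 3 they summed to 836 to 929 CPM in Sam68-labelled, 295 to 324 CPM in Quaking KO and 439.6 to 466 CPM in wild-type libraries. At day 10 the sums were 5792 to 6046 CPM in Sam68-labelled, 2186 to 2784 CPM in Quaking KO and 3030.5 to 3879.7 CPM in wild-type bodies. At days 0 and 3 the lines stood in the same order in Col4a1 and Col4a2. In the Sam68-labelled line 6 of 7 markers tested were higher and 1 lower at day 0, and 7 of 10 higher and 1 lower at day 10, with Gata4 at 1.46 ± 0.07, Sox17 at 1.32 ± 0.14 and Afp at -0.86 ± 0.21. Quaking KO libraries had 6 of 7 lower at day 0 and 4 of 10 at day 10, with Dab2 at -0.75 ± 0.10. No marker of the list was at 0 in all libraries of a group, although Afp averaged 0.0214 ± 0.00922 CPM in Sam68-labelled, 0.0585 ± 0.0216 CPM in Quaking KO and 0.0163 ± 0.0163 CPM in wild-type stem cells. Over all genes 36.5% were higher and 37.9% lower in the Sam68-labelled line at day 0, and 22.8% and 27.8% at day 10. In Quaking KO libraries 20.3% of all genes were lower at day 0 and 6.71% at day 10. The endoderm list held Gata4, Gata6, Sox17, Dab2, Lama1, Lamb1, Apoa1, Apob, Afp and Ttr. Lama1 and Lamb1 encode laminin chains of the same basement membrane, so the sum does not measure cell identity alone. The part of endoderm cells in the type IV levels was not tested.

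**Figure D5:**
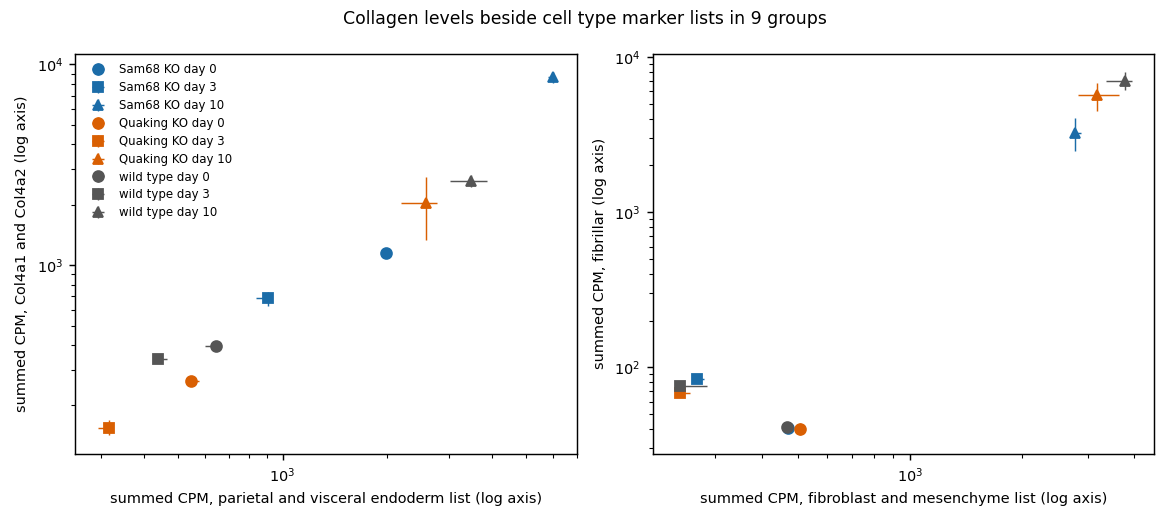
Summed level of Col4a1 and Col4a2 against that of the parietal and visceral endoderm markers (left), and of the fibrillar chains against that of the fibroblast and mesenchyme markers (right), in CPM for the 9 groups, with the median and range of the marker sum and the mean ± SD of the collagen sum over 3 libraries. In the left panel the Sam68-labelled group lies above and to the right of the other lines at each day. In the right panel the marker sum is lower and the fibrillar sum higher at day 3 than at day 0 in each line.

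Fibroblast and mesenchyme markers summed to 2721 to 2872 CPM in Sam68-labelled, 2829.6 to 3631 CPM in Quaking KO and 3354 to 3936 CPM in wild-type bodies at day 10. In the Sam68-labelled line 7 of 10 were lower, with Dcn at -1.82 ± 0.23, Twist2 at -1.54 ± 0.13 and Pdgfrb at -1.24 ± 0.11. Twist1 was the 1 marker called higher in the Quaking KO line, at 0.67 ± 0.16. Fibrillar chains summed to 2633, 2974 and 4124 CPM in Sam68-labelled, 6876, 5595 and 4515 CPM in Quaking KO and 6348, 6675 and 8155 CPM in wild-type bodies, Sam68-labelled bodies lying below all others. Between days 0 and 3 the mean mesenchyme sum fell from 471 to 270 CPM in Sam68-labelled libraries. It fell from 505 to 246 CPM in Quaking KO and from 467 to 254 CPM in wild-type libraries. The mean fibrillar sum instead rose from 40.4 to 83.3, from 40.0 to 68.6 and from 41.2 to 75.6 CPM in these lines. The mesenchyme list held Pdgfra, Pdgfrb, Twist1, Twist2, Prrx1, Postn, Dcn, Lum, Fn1 and Vim. It already summed to 453 to 478 CPM in wild-type stem cells. Such a sum can rest on a few genes, so its fall is not read as a loss of mesenchyme cells. Blood markers summed to 81.9 to 145 CPM in Sam68-labelled, 306 to 365 CPM in Quaking KO and 351 to 463 CPM in wild-type bodies, with 5 of 5 lower in the Sam68-labelled line. All 4 epithelial markers were higher in that line. Cardiac markers were higher in 4 of 6 cases in the Sam68-labelled line and lower in 5 of 6 in the Quaking KO line. Smooth muscle markers were higher in 3 of 4 cases in the Sam68-labelled line, and in the Quaking KO line 1 was lower. Neural markers were lower in 3 of 5 cases in the Sam68-labelled line and higher in 2 of 5 in the Quaking KO line. Of 6 endothelial markers, 1 was higher and 3 were lower in the Sam68-labelled line, and 2 were lower in the Quaking KO line. Of 6 cartilage markers tested, 1 was higher and 1 lower in the Sam68-labelled line. All these counts stand beside 22.8% of all genes higher and 27.8% lower in the Sam68-labelled line, and 4.96% and 6.71% in the Quaking KO line. Those of cartilage, and of endothelium on the higher side, are not above the share of all genes in the Sam68-labelled line. The part of these cell types in the collagen differences was not tested.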

How the data were processed

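Total RNA of 27 samples was depleted of ribosomal RNA and made into stranded libraries, sequenced as read pairs of 125 bases, per the labels' protocols. The authors deposited 1 file of raw counts per library, with 1 row for each gene identifier, and these counts were used as they stand. Reads were demultiplexed with bcl2fastq 2.17.1.14 and aligned with STAR 2.5.3a to GRCm38, per the submitters' processing notes. The counting program, its strand setting and its annotation are not given in the labels or file headers used here.

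From the counts, edgeR 4.0.16 (R 4.3.3) was run with filterByExpr (minimum count 10, total 15), TMM scaling, a quasi-likelihood fit and Benjamini-Hochberg adjustment over all genes tested. Comparisons between lines used the 9 libraries of a day, those between days the 9 wild-type libraries, and changes of such a difference 12 libraries. Standard errors were derived from the log2FC and its F value. CPM were computed here from the counts with TMM factors over all libraries, and the length per gene is the union of its GENCODE exons. The statistics were tested on simulated data with known changes. A level of 1 CPM rests on 56.5 to 77.3 counts before TMM scaling, and replicates differed by more than sampling noise. Wild-type day 10 replicate 1 had 1.44% of its counts in the mitochondrial gene mt-Rnr1, beside 0.411% and 0.385% in replicates 2 and 3. Its log2 levels correlated at 0.9975 and 0.9976 with those replicates, which correlated at 0.9993 with each other.

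The collagen genes, classes and other lists were chosen with earlier results of these data known. Values of every library are given for collagen genes called with a log2FC of at least 1 in size at a mean of at least 1 CPM in a comparison with wild type and for leading genes of each class, and from each other list up to 3 genes in each direction with the smallest p are named. Alternatives were RLE scaling, DESeq2 1.42.0, no filter on low counts, a replicate block, fits of only the 6 libraries compared, and leaving out each library. Start windows are those of RefSeq, GRCm38.p6.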

Additional observations from a re-analysis of the deposited data

Results flagged for a closer look

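Collagen genes are given here where the log2FC of the Sam68-labelled or the Quaking KO line against wild type changed between days, by edgeR's quasi-likelihood test of that change (adjusted p under 0.05 over all genes) at a mean of at least 1 CPM in a group compared, up to 8 genes in each direction. Values are the later log2FC minus the earlier one.

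For the Sam68-labelled line between days 0 and 3, the difference moved upwards for Col1a2 (2.37), Col1a1 (1.80), Col9a2 (1.52), Col2a1 (1.42), Col20a1 (1.37), Col9a3 (0.69), Col22a1 (0.63) and Col18a1 (0.44), and downwards for Col27a1 (-1.06), Col4a1 (-0.59) and Col4a2 (-0.55). Between days 3 and 10 it moved upwards for Col4a1 (0.75), Col4a2 (0.59) and Col11a1 (0.51), and downwards for Col25a1 (-2.40), Col14a1 (-2.31), Col6a3 (-2.18), Col8a2 (-2.12), Col6a2 (-1.91), Col24a1 (-1.90), Col9a2 (-1.67) and Col1a1 (-1.47). Col4a1 and Col4a2 had their smallest difference from wild type at day 3. The call of Col11a1 was lost when 1 library was left out, Sam68-labelled replicate 1, 2 or 3 of day 3, Sam68-labelled replicate 3 of day 10, wild-type replicate 1, 2 or 3 of day 3, or wild-type replicate 2 of day 10 (adjusted p from 0.0537 to 0.131). The call of Col6a3 was lost when 1 library was left out, Sam68-labelled replicate 3 of day 3, Sam68-labelled replicate 2 of day 10, wild-type replicate 1, 2 or 3 of day 3, or wild-type replicate 1, 2 or 3 of day 10 (adjusted p from 0.0515 to 0.273).

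For the Quaking KO line between days 0 and 3, the difference moved upwards for Col1a2 (2.07), Col20a1 (1.51), Col6a5 (1.42), Col6a2 (0.83), Col18a1 (0.50), Col2a1 (0.50) and Col9a3 (0.49), and downwards for Col26a1 (-1.41), Col4a2 (-0.59) and Col4a1 (-0.55). Between days 3 and 10 it moved upwards for Col13a1 (1.49), Col5a2 (1.26), Col26a1 (0.87) and Col23a1 (0.60), and downwards for Col1a2 (-1.09) and Col18a1 (-0.39). Col1a2, lower in both lines than in wild type at each day, had its smallest difference at day 3 in both. The call of Col6a2 was lost when 1 library was left out, Quaking KO replicate 2 of day 0, or wild-type replicate 1 or 3 of day 0 (adjusted p from 0.0696 to 0.11). The call of Col9a3 was lost when 1 library was left out, Quaking KO replicate 1 or 3 of day 0, Quaking KO replicate 1 of day 3, wild-type replicate 1, 2 or 3 of day 0, or wild-type replicate 2 or 3 of day 3 (adjusted p from 0.0509 to 0.0798). The call of Col13a1 was lost when 1 library was left out, Quaking KO replicate 1 or 3 of day 3, or wild-type replicate 2 of day 3 (adjusted p from 0.0522 to 0.0733). The call of Col18a1 was lost when 1 library was left out, Quaking KO replicate 1 or 2 of day 3, Quaking KO replicate 2 or 3 of day 10, wild-type replicate 2 or 3 of day 3, or wild-type replicate 3 of day 10 (adjusted p from 0.0607 to 0.0889). The call of Col23a1 was lost when 1 library was left out, Quaking KO replicate 1 or 2 of day 3, Quaking KO replicate 2 of day 10, wild-type replicate 2 or 3 of day 3, or wild-type replicate 2 of day 10 (adjusted p from 0.0533 to 0.0803). The call of Col26a1 was lost when 1 library was left out, Quaking KO replicate 1 or 3 of day 3, Quaking KO replicate 2 of day 10, or wild-type replicate 2 or 3 of day 3 (adjusted p from 0.0563 to 0.0927). The call of Col5a2 was lost when 1 library was left out, Quaking KO replicate 1, 2 or 3 of day 3, Quaking KO replicate 2 of day 10, wild-type replicate 1 or 3 of day 3, or wild-type replicate 2 of day 10 (adjusted p from 0.0509 to 0.0786). The 2 lines share their wild-type libraries, so a value of wild type at day 3 enters both changes.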

How the results depend on the processing

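Counts of collagen genes called stayed within 1.5 times the reported count under every alternative run in 13 of the 15 comparisons. The exceptions concern the Quaking KO line. Its count of 7 at day 10 ranged from 4 to 10 when single libraries were left out. The change of its difference between days 3 and 10, called in 6 genes, ranged from 1 to 9 when single libraries were left out and was 11 with no filter on low counts. Over all genes, the 1381 calls of the Quaking KO line at day 3 became 749 without wild-type replicate 2 and 801 without replicate 3, and the 2392 at day 10 became 1399 without Quaking KO replicate 2. For the change between these days, 753 calls became 1214 with DESeq2 and 1338 with no filter. Col3a1 in Quaking KO stem cells had a log2FC of -1.10 without replicate 1 (adjusted p = 0.0125), and leaving out single libraries gave -1.10 to 0.53. The cause was not tested.

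With a replicate block the Quaking KO count at day 10 was 5, losing Col17a1 (adjusted p = 0.0544) and Col4a5 (0.0764), and the Sam68-labelled count at day 10 was 32, losing Col22a1 (0.0557). Sam68-labelled against Quaking KO libraries lost Col6a6 at day 0, Col4a3 at day 3 and Col4a5 at day 10 under the block, and no other collagen call was lost. Samples of the same number in compared groups correlated at -0.083 to 0.22 in their deviations from the group means, not every sample correlated best with its own number, and no label ties the numbers, so they were not taken as pairs. Replicate 1 gave the highest values. These were 0.22 for Quaking KO against wild type at day 3 and 0.18 for wild-type day 10 against day 3. Genes under about 1 CPM, such as Col4a3, Col4a4 and Col6a4, rest on few reads.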
